A study of Homo sapiens with 2 samples.

Results

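The amyloid precursor protein gene APP and its paralogue APLP2 were examined in long-read INSCRIBE data from HEK293T cells, a human embryonic kidney cell line. The isoform models of both libraries were assigned to genes by largest same-strand exonic overlap with GENCODE 44 on hg38, and each member matched 1 locus among the 12178 loci that held a listed edit site. The members contributed 23 of the 213041 distinct edited positions, and 30 and 95 isoform models. In INSCRIBE, fixed cells are incubated with a rabbit antibody to an RNA-binding protein and then with recombinant APOBEC1, a cytidine deaminase, fused to a nanobody against rabbit IgG. Cytosines near the bound protein are converted to uracil and are read as C-to-T changes. Both libraries came from methanol-fixed, otherwise untreated cells that the labels call HEK293T in the titles and HEK293XT under cell line. The RBFOX2 library was treated with both the rabbit antibody to RBFOX2 and the fusion protein, and the enzyme-only library received the fusion without an antibody. There was 1 library in each group, so no difference between them has a replicate check and no p-values are given. Intervals in the text are 95% limits by the exact Clopper-Pearson method, which reflect the error of counting alone, since reads without molecular identifiers are not independent molecules.

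APP is a single-pass membrane protein. Cleavage by α-secretase releases its soluble ectodomain, and cleavage by β-secretase followed by γ-secretase releases the amyloid-β peptide that accumulates in Alzheimer's disease. APLP2 is a widely expressed relative that is cut by the same classes of protease but lacks the amyloid-β sequence. RBFOX2 is a splicing factor of the RBFOX family that binds the hexamer UGCAUG, in introns beside alternative exons and in 3′-UTRs. APOBEC1 prefers cytosines preceded by A or U.

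The sequences around the UGCAUG copies that had listed sites next to them are shown first, because the unshared sites nearest to the RBFOX motif lay there in both genes. Each window is hg38 read on the gene's strand, 5′ to 3′, as RNA. In the first pair, capitals mark the hexamer and every cytosine listed as edited.
APP 3′-UTR, exon 18, minus strand, chr21:25881376-25881405: auCaaacuagUGCAUGaauagauuCuCuCc
APLP2 coding exon 2, plus strand, chr11:130109495-130109524: aaguuaaauaUGCAUGugaaCauucagaCu
The APP window held 4 sites of the RBFOX2 library and the APLP2 window held 2, and neither held a site of the enzyme-only library. The cytosine inside the hexamer was not listed in either gene.

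APP (PB.49309, ENSG00000142192.22, chr21:25880548-26170770, minus strand) had nearly equal depth, with 637 reads for RBFOX2 and 630 for enzyme-only, a ratio of 1.01. The RBFOX2 library listed 11 edited cytosines in APP and the enzyme-only library listed 1. That 1 site was listed in both libraries, which left 10 unshared sites against 0. A count of 0 was taken to allow up to 3 sites, a fixed limit that is separate from the Clopper-Pearson interval given next. After scaling by the unshared sites of each whole library, 109357 and 91111, the log2 ratio was 4.13 with a pseudocount of 0.5, a value that the pseudocount sets, and its interval began at 0.90 and had no upper bound. Of 5594 genes with at least 10 unshared sites over both libraries, 19.4% had a log2 ratio over 1 and 17.2% had one under -1. Among the 479 of them that had 500 reads or more on both sides, 33.4% were over 1.

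The files list a position only when its converted reads exceed 0.2% of the reads of the gene. An APP position therefore needed 2 converted reads to be listed in either library. The RBFOX2 library held 22 converted reads over its 10 unshared APP sites, or 34.5 per 1000 APP reads, and the enzyme-only library had 0 listed. With at most 1 unlisted read at each of those positions, the enzyme-only library could hold up to 10 converted reads there. Since the positions were those listed in the RBFOX2 library alone, the direction of this difference follows from how they were chosen, and no ratio is drawn from it. A read converted at several positions is counted at each of them.

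All 11 APP positions were in the 3′-UTR, in exon 18, and spanned 408 nt of a canonical 3′-UTR of 1120 nt. Distances are given from the last base of the stop codon and, in the next sentences, from the UGCAUG 275 nt after it, with negative values 5′ of the hexamer. The most 5′ site was 145 nt after the stop codon, at -130 nt, with 2 converted reads. The sites at -51 nt and -29 nt had 2 and 3 converted reads. Those 3 sites all lay 5′ of the sequence window shown above.

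Inside the window, the site at -8 nt had 2 converted reads. The 3 cytosines of the run after the hexamer were at 9, 11 and 13 nt and had 2, 3 and 2 converted reads. Each of these alternated with a uracil, so that the 3 of them were separated by single bases. No other stretch of APP or APLP2 had 3 listed cytosines this close together.

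The shared site lay at 28 nt (chr21, position 25881362, 308 nt after the stop codon). It had 5 converted reads with the antibody, 0.785% of APP reads, and 3 without it, 0.476%. It was the APP position with the most converted reads in the RBFOX2 library. The remaining sites were at 91, 213 and 272 nt, with 2 converted reads each. Most APP sites were therefore at the lowest count that could be listed: 2 reads were 0.314% of APP reads (0.0380 to 1.13%) and 3 reads were 0.471% (0.0972 to 1.37%). An unlisted APP position in the enzyme-only library could lie as high as 0.881%, the upper bound of 1 read, so no single APP position separated the libraries beyond counting error.

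**Figure D1:**
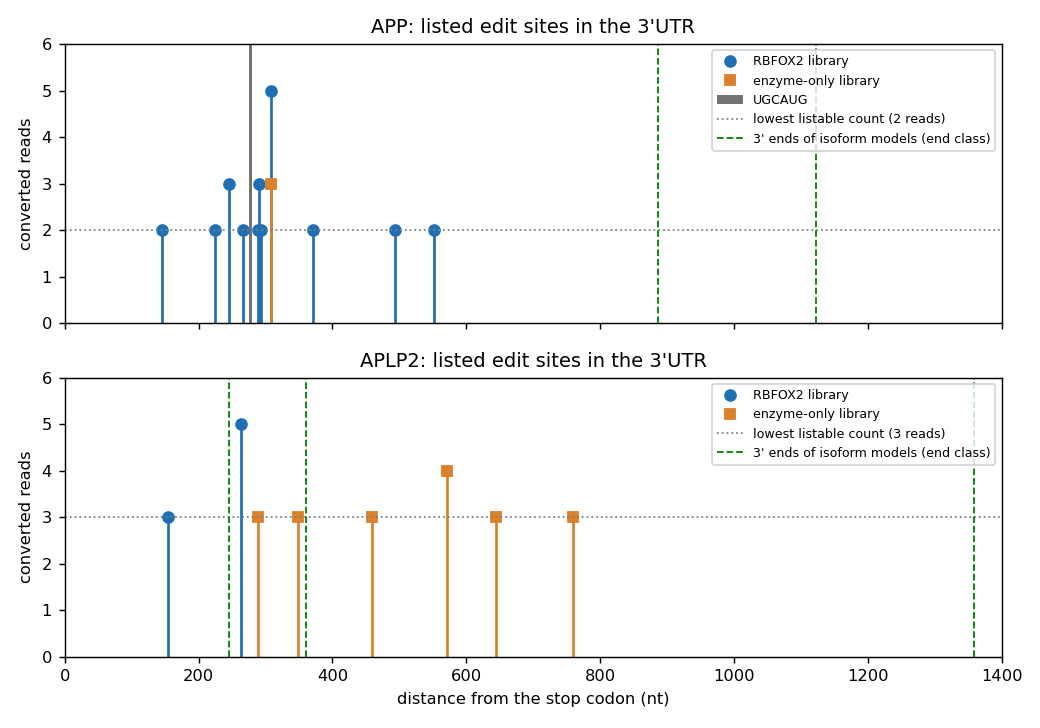
Converted reads (y axis) at each listed edit site of the 3′-UTR of APP (top) and APLP2 (bottom) against distance from the stop codon in nt (x axis), with circles for the RBFOX2 library and squares for the enzyme-only library; the dark bar is UGCAUG, dashed lines are the farthest 3′ ends of each class of isoform models, and the dotted line is the lowest count that could be listed. The 11 RBFOX2 sites of APP lie between 145 and 552 nt, on both sides of the hexamer at 275 nt, and the 6 enzyme-only sites of APLP2 lie between 289 and 759 nt, beyond its 2 RBFOX2 sites.

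The hexamer and the 5′ base were then considered together for every cytosine of the APP 3′-UTR. Within 50 nt of the UGCAUG there were 17 cytosines, of which 6 were listed in the RBFOX2 library (35.3%, 14.2 to 61.7%), 5 of them unshared. Beyond 50 nt, 5 of 181 were listed (2.76%, 0.903 to 6.33%). Of the 8 cytosines within 50 nt that followed A or U, 6 were listed (75%, 34.9 to 96.8%), and of the 9 that followed G or C, 0 were. Farther away, 5 of the 109 cytosines after A or U were listed (4.59%, 1.51 to 10.4%). Over the whole 3′-UTR all 11 positions followed A or U, out of 117 such cytosines (9.40%, 4.79 to 16.2%), and none of the 81 after G or C was listed, which allows up to 4.45%. The intervals of cytosines near to and far from the hexamer did not overlap, with or without the restriction to A or U. These positions share their reads, so the intervals treat as independent what came from the same molecules.

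**Figure D2:**
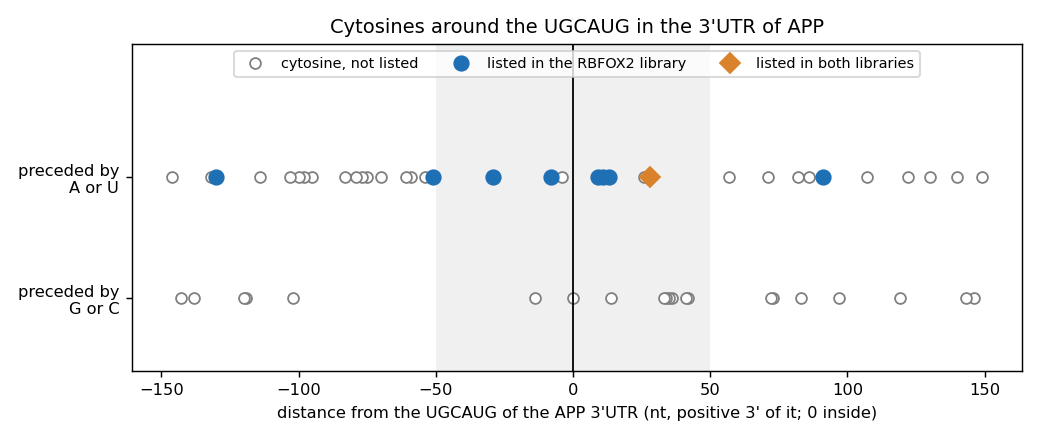
Every cytosine within 150 nt of the UGCAUG in the APP 3′-UTR, by distance from the hexamer in nt (x axis, positive 3′ of it) and by the base that precedes it (rows); filled circles were listed in the RBFOX2 library, the diamond in both libraries, open circles in neither, and the shaded band is 50 nt on either side. All listed cytosines are in the A or U row, and 6 of the 8 cytosines of that row inside the band were listed.

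The sequence around listed sites was AU-rich, as was the 3′-UTR as a whole. Within 10 nt on both sides, the 11 listed positions had a median of 75% A or U (60 to 80%). The 117 cytosines after A or U had a median of 70% (30 to 90%). The listed positions lay inside the range of the unlisted ones. The most 3′ APP site shows a case without the hexamer, with the listed cytosine in capitals.
APP 3′-UTR site 552 nt after the stop codon, chr21:25881104-25881133: uacagauugcugcuuCugcuauauuuguga

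Against all 932 exonic cytosines of the APP locus, the unshared sites differed in position, region and context, which are not independent traits. The cytosines were not weighted by reads, which are given per gene only. Exon 2 was whole in 6 of the 30 models, and 26 held the edited part of exon 18. The part of depth in these contrasts was not tested. Of the 10 sites, 5 were within 50 nt of a UGCAUG (50%, 18.7 to 81.3%), against 8.91% of the cytosines. All 10 were in the 3′-UTR (69.2 to 100%), against 21.2% of the cytosines, and all 10 followed A or U, against 48.0%. For these distances UGCAUG was searched on the gene's own strand over the whole locus, introns included, so the nearest copy can be intronic. The 5-base core GCAUG, also searched, is contained in the hexamer. The variant GCACG was searched in exons as well. Its copy in the APLP2 3′-UTR, 528 nt after the stop codon, had 1 enzyme-only and 0 RBFOX2 sites within 50 nt. Its other copies in the exons of APP and APLP2 had no listed site within 50 nt. Over the exons of all listed loci, 2.48% of cytosines were within 50 nt of UGCAUG.

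APP had 3 further UGCAUG copies in exons, and none had a listed site within 50 nt in either library. They lay in coding exon 7 (chr21:26000034-26000039, in 13 of 30 models), in coding exon 5 (chr21:26051163-26051168, in 13 models) and in a non-coding exon (chr21:25997271-25997276, in 2 models). The copies of exons 7 and 5 each had 7 cytosines after A or U within 50 nt. The copy of the 3′-UTR was in 26 models. Reads are given per gene, so the number of reads that crossed exons 5 and 7 is unknown, and the part of depth in these absent sites was not tested.

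The study's own in vitro substrate for the enzyme was a stretch of this 3′-UTR. Its sequence matched the APP locus exactly once, over 300 nt (chr21:25881239-25881538, from 132 to 431 nt after the stop codon), and it carries 56 cytosines and the UGCAUG. It held 9 of the 11 RBFOX2 sites of APP, 8 of them unshared, with 23 converted reads, and the 1 enzyme-only site. In the fixed cells without antibody, 1 of its 56 cytosines reached the listing minimum.

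Isoform models of APP were compared for what they share around these sites. The alternative exons of APP are exon 7, which encodes a Kunitz protease inhibitor domain, and exon 8, which encodes the OX-2 domain. Among 12 models that held exons 6 and 9 whole, 4 had exons 7 and 8, 4 had exon 7 alone and 4 had neither. All of the 26 models that reached exon 18 held every edited position, so the sites did not distinguish these splice forms. No site was listed in exons 1 to 17.

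The APP 3′ ends fell into 2 classes. There were 21 models with a 3′-UTR of 1116 to 1122 nt and 5 with one of 868 to 886 nt, and 4 models did not reach exon 18. All 10 unshared sites lay before the proximal end, among 168 cytosines, and none among the 32 cytosines beyond it. Edited cytosines as a share of all cytosines of a model (editsC) had a median of 1.71% in the RBFOX2 library over the 30 models (0 to 4.46%) and 0 in the enzyme-only library. The share was higher in the RBFOX2 library in 26 models and 0 in both libraries in 4. These 4 were the models that end before exon 18. The median was 1.75% for the distal and 2.30% for the proximal ends, with the same 10 sites in each model and fewer cytosines in the shorter models.

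APLP2 (PB.33553, ENSG00000084234.18, chr11:130069888-130144807, plus strand) was deeper than APP, with 1017 reads for RBFOX2 and 1028 for enzyme-only. Each library listed 6 edited cytosines and none was shared. The log2 ratio of sites was -0.26 (-2.17 to 1.64), so a difference in number was not detectable at this depth. The RBFOX2 library held 22 converted reads, or 21.6 per 1000 APLP2 reads, and the enzyme-only library held 19, or 18.5 per 1000. An APLP2 position needed 3 converted reads to be listed. At the 6 positions of either library the other library could hold up to 12 unlisted reads.

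Per 1000 reads, APP had 34.5 converted reads at unshared RBFOX2 sites and APLP2 had 21.6, with different listing minimums of 2 and 3 reads. In the enzyme-only library APLP2 had 19 converted reads where APP had 0 outside the shared site. Where the APLP2 sites lay differed between the libraries, as follows.

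In the RBFOX2 library, 4 of the 6 APLP2 sites were in coding exons. Exon 2 held 3 of them. The site 5 nt after the UGCAUG (position 130109515) had 3 converted reads and would be synonymous in codon 64. The site 13 nt after it (position 130109523) had 5 converted reads and would change the amino acid of codon 67. The site at 83 nt (position 130109593) had 3 converted reads and would be synonymous in codon 90.

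The fourth coding site was in exon 8 (position 130126748), 19 nt before a GCAUG, the 5-base core of the hexamer. It had 3 converted reads and would change the amino acid of codon 380. The other 2 were in the 3′-UTR, 155 and 263 nt after the stop codon (positions 130143603 and 130143711), with 3 and 5 converted reads. All 6 RBFOX2 sites followed A or U (54.1 to 100%), against 46.9% of the 1400 exonic cytosines of APLP2. Within 50 nt of a GCAUG lay 3 of the 6, those near the hexamer included, against 10% of these cytosines. The enzyme-only library had 0 of 6 there. Apart from the exon 8 copy, no exonic GCAUG outside a UGCAUG had a listed site within 50 nt in APLP2 or APP.

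In the enzyme-only library all 6 APLP2 sites were in the 3′-UTR. They lay 289, 349, 459, 571, 645 and 759 nt after the stop codon. The site at 571 nt had 4 converted reads and the others had 3. Each lay 3′ of both RBFOX2 sites of the 3′-UTR, so the positions of the libraries did not interleave. Of these 6 sites 4 followed A or U (66.7%, 22.3 to 95.7%). The 3′-UTR site with the most converted reads in each library is shown with that cytosine in capitals, the RBFOX2 site before the enzyme-only site.
APLP2 3′-UTR site 263 nt after the stop codon, plus strand, chr11:130143696-130143725: auuugauguaguuuuCuuuuuuaaauuaau
APLP2 3′-UTR site 571 nt after the stop codon, plus strand, chr11:130144004-130144033: ugaaaggaccaguuuCuugaaguccagugu
Both cytosines follow a run of U, and neither window holds UGCAUG.

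Near UGCAUG, the RBFOX2 library had 2 of 6 APLP2 sites within 50 nt (33.3%, 4.33 to 77.7%) and the enzyme-only library had 0 of 6 (up to 45.9%), against 3.21% of the exonic cytosines. With 6 sites in each library the intervals overlapped. Coding sequence held 4 of 6 and 0 of 6 sites, against 37.4% of the cytosines, and the 3′-UTR held 2 of 6 and 6 of 6, against 22% of the cytosines. This contrast depends on the annotated transcript: with 3′-UTR placed before coding sequence, 100% of the sites of both libraries counted as 3′-UTR. The exon 2 copy had 20 cytosines within 50 nt, 9 of them after A or U, and was in 24 of 95 models. A second copy, in a non-coding exon of 1 model (chr11:130139359-130139364), had no listed site.

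The exon that carries the APLP2 hexamer has a counterpart in exon 2 of APP. Translations of the canonical coding sequences aligned over 722 positions, of which 399 were identical (55.3%). Through that alignment the window of APLP2 exon 2 was matched to APP without a gap. Capitals mark the 6 bases aligned with the APLP2 hexamer.
APP coding exon 2, minus strand, chr21:26112057-26112086: agacugaacaUGCACAugaauguccagaau
The 2 windows shared 19 of 30 bases, and 4 of the 6 hexamer bases were identical, so APP lacks UGCAUG at this place. None of the 6 cytosines of the APP window was listed in either library, whereas 2 of the 4 cytosines of the APLP2 window were listed in the RBFOX2 library. The reads over exon 2 of either gene are unknown, and 6 of the 30 APP models held exon 2 whole. The unshared sites within 50 nt of a UGCAUG were in the RBFOX2 library, 5 in the 3′-UTR of APP and 2 in coding sequence of APLP2. For APP this could not be otherwise, since it had 0 unshared enzyme-only sites. The APP site that the enzyme-only library did list, shared by both libraries, lay 28 nt from the hexamer.

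The APLP2 3′-UTR ended at 3 places in the isoform models. There were 22 models with a 3′-UTR of 222 to 246 nt, 33 with 349 to 361 nt and 33 with 1355 to 1359 nt, and 7 models did not reach the last exon. Upstream of the stop codon, 1092 cytosines held 4 RBFOX2 sites and 0 enzyme-only sites. The stretch from the stop codon to the proximal end had 52 cytosines with 1 and 0 sites, and the stretch from there to the middle end had 18 cytosines with 1 and 2 sites. Beyond the middle end, in the part present only in the 33 long models, 238 cytosines held 0 RBFOX2 sites and 4 enzyme-only sites. The enzyme-only site 349 nt after the stop codon was at the 3′ end of the shortest middle models.

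The edited share of APLP2 models followed these ends. The median editsC over all 95 models was 0.641% in the RBFOX2 library (0 to 3.26%) and 0.487% in the enzyme-only library (0 to 1.87%). It was higher in the RBFOX2 library in 53 models, lower in 27 and equal in 15. Models with proximal ends had medians of 0.529% and 0, those with middle ends 0.829% and 0.465%, and those with distal ends 0.446% and 0.957%, in the RBFOX2 and enzyme-only libraries. Of the 33 models with distal ends, 27 were lower in the RBFOX2 library and 6 were equal, while all 22 with proximal ends were higher. The models share the same sites and carry no expression values, so they are not replicates of each other.

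The alternative exons of APLP2 held no listed site. Exon 7, which encodes its Kunitz domain, was in 17 of the 49 models that held exons 6 and 8 whole. Exon 13 was in 54 of the 75 models with exons 12 and 14 whole. A 36 nt exon between exons 13 and 14 (chr11:130137256-130137291) was in 10 of 58 models and had 10 cytosines.

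**Figure D3:**
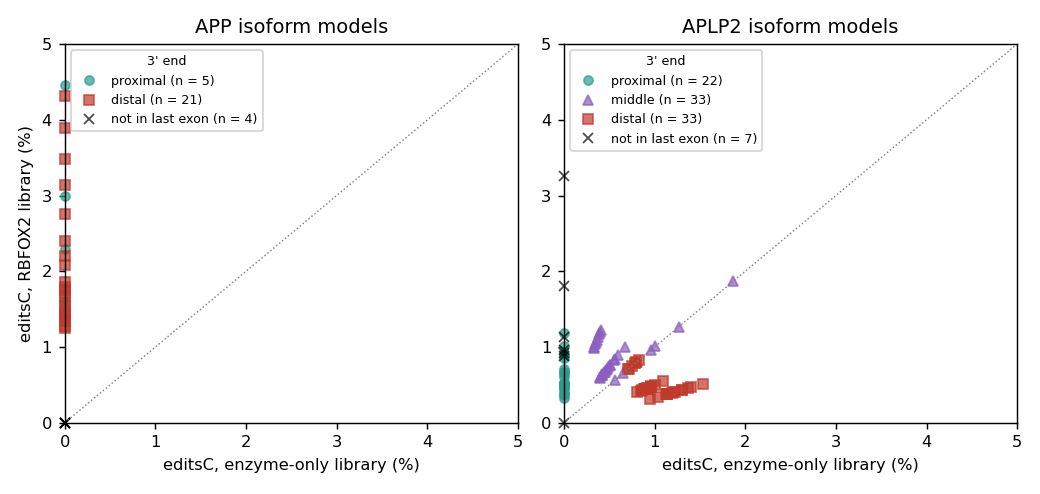
Edited cytosines as a percentage of all cytosines (editsC) of each isoform model of APP (left) and APLP2 (right), in the enzyme-only library (x axis) and the RBFOX2 library (y axis), with symbols for the class of 3′ end and a dotted line where the libraries are equal. APP models lie on the y axis up to 4.46%, while 27 of the 33 APLP2 models with distal ends lie below the line and 6 on it, and those with proximal ends lie on the y axis.

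Compared with the 787 genes of at least 500 reads in both libraries, the RBFOX2 count of APP was ordinary and its enzyme-only count was low. The median gene of this set had 7 unshared RBFOX2 sites and 4 enzyme-only sites, and 266 genes, of unequal depth, had more RBFOX2 sites than APP. At least 10 RBFOX2 sites were found in 38.4% of the genes. At least 10 RBFOX2 sites with 0 enzyme-only sites were found in 0.889% of them, or 7 genes including APP. Both limits are the counts of APP itself, so this share does not measure how unusual APP is. With shared sites kept, APP had 11 and 1 sites and would not meet them. Of 288 genes whose reads were within 0.8 to 1.2 times those of APP in both libraries, the medians were 8 and 4 sites, and 3 genes including APP had 0 enzyme-only sites. A log2 ratio above that of APP was found in 6 of the 787 genes. This rank rests on the APP value of 4.13, which the pseudocount sets. With shared sites kept, the APP value was 2.70.

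APLP2 was near the middle of the same set. At least 6 enzyme-only sites were found in 40.7% of the genes. Among 138 genes with reads within the same factors of APLP2, the medians were 8.5 and 8 sites and the median log2 ratio was -0.26, the value of APLP2 itself. Per 1000 reads, the median gene of the 787 had 20.7 RBFOX2 and 13.2 enzyme-only converted reads. APP had 34.5 and 0, and APLP2 had 21.6 and 18.5. The count needed for listing depends on the reads of the gene, so genes of similar reads are the closer comparison. The 288 genes with reads near those of APP had medians of 27.49 and 16.04. The 138 genes with reads near those of APLP2 had medians of 21.61 and 21.04.

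**Figure D4:**
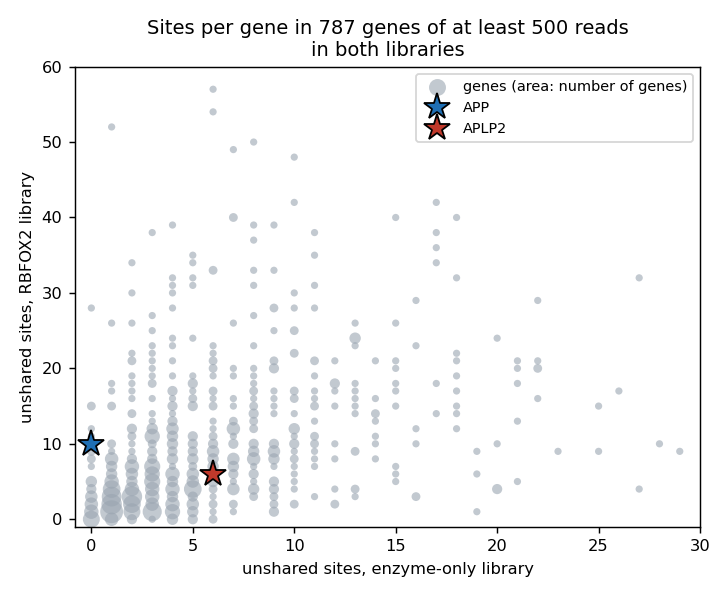
Unshared edit sites in the enzyme-only library (x axis) and the RBFOX2 library (y axis) for the 787 genes that reached 500 reads in both; the area of a circle grows with the number of genes at that pair of counts, and stars mark APP and APLP2. APP lies on the left edge at 10 and 0 sites, and APLP2 lies inside the cloud at 6 and 6.

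The genes whose pattern was most like that of APP were taken from those with the most RBFOX2 sites among the 47 of these 787 genes that had no unshared enzyme-only site. MORF4L2 had 28 RBFOX2 sites, with 20 placed in its 3′-UTR and 5 near UGCAUG (50 nt or less). ERH had 15, with 6 and 3. SELENOS had 15, with 12 in the 3′-UTR and 0 near the hexamer. TXN had 11, with 3 and 2. APP, with 10 sites of which 10 were in the 3′-UTR and 5 near the hexamer, had the fewest sites of these 5 genes. Over the 787 genes, 52.7% of RBFOX2 sites and 39.8% of enzyme-only sites were in 3′-UTRs, and 5.79% and 1.79% were within 50 nt of UGCAUG.

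The other genes of the APP pathway were taken from a list of 44, of which 36 had a listed site and 26 had at least 10 unshared sites. The log2 ratio was over 1 in 3 of the 26 and under -1 in 2, beside 19.4% and 17.2% of all genes, and between in 21. Their median was 0.21, beside 0.07 over all genes with at least 10 sites. Near UGCAUG, the listed genes together had 29 of 578 RBFOX2 sites and 16 of 408 enzyme-only sites.

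The third family member, APLP1, which is mainly neuronal, had 9 and 8 sites on 40 and 39 reads. Among the secretases with at least 10 unshared sites only PSEN2, a catalytic subunit of γ-secretase, was over 1, with 20 RBFOX2 and 8 enzyme-only sites and a log2 ratio of 1.01 (-0.19 to 2.45). With shared sites kept it was 0.94, no longer over 1. The α-secretase ADAM10 had 5 sites in each library. Of the cytoplasmic adaptors, SHC1 had 8 and 14 sites (-1.03, -2.53 to 0.28). The loci of PSEN2 and SHC1 each overlap 2 genes.

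Of the sorting and endocytosis genes, BIN1, a membrane-curvature protein of the endocytic pathway, had 22 and 8 sites (1.14, -0.03 to 2.57). VPS35, a core subunit of the retromer that returns cargo from endosomes, had 3 and 9 sites (-1.70, -4.37 to 0.15). ITM2C, a membrane protein that binds APP, had 53 and 12 sites (1.83, 0.96 to 2.92). Near UGCAUG lay 8 of the 53 and 2 of the 12, similar shares in both libraries, beside 5.48% of its exonic cytosines. ITM2C was the only gene of the 26 whose interval excluded 0. The share of all genes with such an interval is not given here, so this count has no background beside it. Genes under 500 reads can list positions at 1 converted read, so the site numbers of these genes are not set against those of APP and APLP2.

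**Figure D5:**
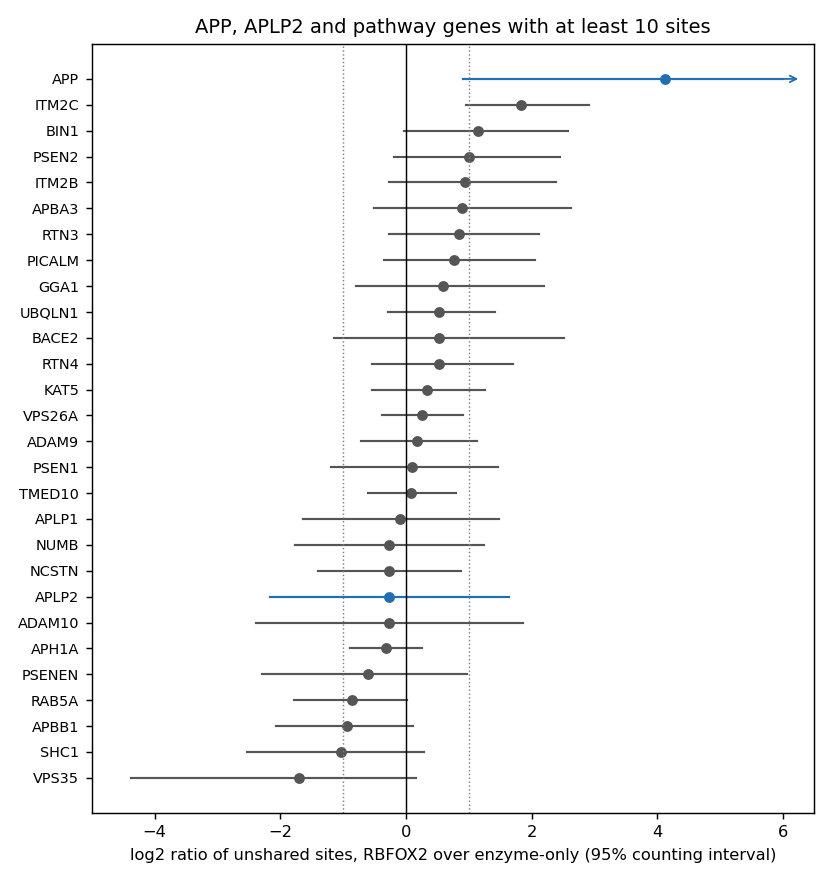
Log2 ratio of unshared sites, RBFOX2 over enzyme-only library (x axis), for APP, APLP2 and the 26 pathway genes with at least 10 sites, with lines for 95% counting intervals and dotted lines at -1 and 1. The interval of APP begins at 0.90 and has no upper bound (arrow; its point depends on the pseudocount), that of ITM2C begins at 0.96, and all others, APLP2 included, cross 0.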

How the data were processed

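Edit sites of 2 HEK293T libraries (1 RBFOX2, 1 enzyme-only, grouped by their label descriptions) were analysed; APP and APLP2 and the gene lists were chosen with earlier results of these data known. Per the labels, RNA was prepared with a PacBio Iso-Seq kit and processed on hg38. The methods of the study name a Kinnex kit, IsoQuant and replicates not analysed here, so the tables may come from another run, and the caller's settings are not given in the sources used here. The authors deposited, per site, the count of converted reads, the count of reads of the whole gene, their ratio as an edit fraction (always above 0.002) and an unused confidence score. Counts are not reads at the position, so the fraction understates editing of alternative exons. Another deposited table gave the exon positions of 119827 isoform models without expression. Summed gene reads were 2431345 (RBFOX2) and 2233600 (enzyme-only), with 121930 and 103684 sites, 12573 shared and left out of ratios.

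Python 3.11.15, scipy 1.17.1, pysam 0.24.0, Biopython 1.88 and bedtools 2.31.1 were used. Ratios used a pseudocount of 0.5 and library totals of unshared sites. Region precedence was coding, 3′-UTR, 5′-UTR, non-coding exon, intron. Isoform 3′ ends over 50 nt apart formed separate classes. Canonical coding sequences were translated and aligned with BLOSUM62. Named were both members, pathway genes with at least 10 unshared sites and a log2 ratio over 1 or under -1, the 5 genes most like APP (1 of which is not reported here), and APLP1 and ADAM10, chosen after their values were seen. Ratios and distances were tested on simulated data. Shared sites, converted-read and listing minimums, pseudocount, scaling, window, motif, region order and site minimum were varied.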

Additional observations from a re-analysis of the deposited data

How the results depend on the processing

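No paired analysis was possible because each group had 1 library and the labels number them 2 and 1. Of 69 recomputed values, 66 stayed within the counting interval of the reported value, within 1.5 times of it for counts, or within the SD over models for editsC. This tally is a weak check. Every listed APP and APLP2 site already had at least 2 converted reads, and APLP2 had no shared site, so those settings could not change their sites. The counting intervals were also wide, and that of the APP log2 ratio had no upper bound. The 3 values that moved were these. With shared sites kept, APP had 1 enzyme-only site in place of 0, and its log2 ratio was 2.70. With the 3′-UTR placed before coding sequence, 100% of the RBFOX2 sites of APLP2 counted as 3′-UTR in place of 33.3%, because other annotated transcripts class the 4 coding positions as 3′-UTR. With at least 20 sites per gene, 1 pathway gene in place of 2 was under -1. The log2 ratio of APP was 3.20 with a pseudocount of 1 and 4.38 when scaled by its reads, and that of APLP2 was 0.02 when scaled by its reads, so its sign is not settled. Depth limits all of this: APP and APLP2 positions below 2 and 3 converted reads are not listed, and 1 library per group leaves the variation between preparations unmeasured.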
